A study of Mus musculus with 8 samples.

Results

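miR-31 is a single microRNA (miRNA) hairpin that yields 2 measured mature strands, named mmu-miR-31-5p and mmu-miR-31-3p in the files and miR-31-5p and miR-31-3p here. These 2 were taken by name from an array that carries probes for 1881 mouse miRNAs. RNA came from skin of male mice of genotype Ncstn flx/flx; Krt14 CreER+/-. Nicastrin, the product of Ncstn, is part of the γ-secretase that cleaves Notch receptors, and Krt14 CreER is a Cre that tamoxifen activates and a keratin promoter of basal keratinocytes drives. The NcstnΔKC group (4 samples) was gavaged with tamoxifen at 20 mg/kg/day, on 5 consecutive days beginning at 8 weeks and thereafter at intervals of 10 days. The normal group, also 4 samples, carried the same alleles and transgene and received corn oil, so tamoxifen itself and loss of Ncstn differ together. Whole skin was taken at 16 weeks, described by the submitters as lesions, so keratinocytes are only part of each RNA and, in such bulk RNA, fewer cells of a type and less RNA per cell cannot be told apart. The array does not measure Ncstn mRNA, and no label says that the 4 samples of each group are different mice, so the spread behind each p-value may be technical.

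miRNAs are short RNAs that repress mRNAs whose transcripts pair with the seed, bases 2 to 8 of the miRNA. In skin, miR-31 is known to be raised in the hair follicle during its growth phase, in keratinocytes at the edge of wounds, where it promotes their proliferation and migration, and in the thickened epidermis of psoriasis. Its transcription is known to respond to NF-κB, and among its known targets in human keratinocytes are STK40, a negative regulator of NF-κB signalling, and HIF1AN, the hydroxylase that restrains hypoxia-inducible factor.

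The sequences are shown because all values below rest on how 4 probes pair with the 2 strands. In RefSeq's annotation of build GRCm38.p6 the hairpin lies on chromosome 4, 88910557 to 88910662, on the minus strand, within the span of the long noncoding RNA gene Gm49890. The nearest coding genes are Ifne, an interferon gene, at 30.4 kb and Mtap, of methionine salvage, at 227 kb. The hairpin is printed with both mature strands in capitals, and each mature strand with its seed in capitals.
Mir31 hairpin: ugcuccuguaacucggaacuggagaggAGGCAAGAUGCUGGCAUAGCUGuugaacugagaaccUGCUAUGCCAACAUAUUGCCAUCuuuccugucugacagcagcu
miR-31-5p: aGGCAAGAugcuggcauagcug
miR-31-3p: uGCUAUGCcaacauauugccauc
miR-31-5p spans 88910614 to 88910635 and miR-31-3p 88910577 to 88910599. No other of the 1738 mature mouse miRNAs in RefSeq's table shared either seed (0 for each strand), so the pair stands alone by seed. The 4 probes follow, and the capital marks the base by which the longer probe of a pair exceeds the shorter.
A_54_P1322: cagctatgccagcatcT
A_54_P1323: cagctatgccagcatc
A_54_P3474: gatggcaatatgttggca
A_54_P3475: gatggcaatatgttggcaT
The first and second are the exact complement of miR-31-5p bases 6 to 22 and 7 to 22, and the other two of miR-31-3p bases 6 to 23 and 5 to 23. The longest unbroken stretch that any other of 1736 mature miRNAs shared with a probe's target was 9 bases, in miR-1941-5p with A_54_P1322. For the other 3 probes it was 8 bases. The positions in the array files (mm9) place the arms of all 80 minus-strand hairpins with both arms listed in the opposite order to RefSeq (0 of 80 in the same order, against 126 of 126 on the plus strand), so RefSeq's are given for miR-31.

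All 8 arrays lie on 1 slide, with every NcstnΔKC array in slide row 1 and every normal array in slide row 2, so row and group cannot be told apart. An array detected between 198 and 273 miRNAs, and no spot was saturated (0 on each array). The epithelial markers were present on every array: all 7 (miR-203-3p, miR-205-5p and 5 of the miR-200 family) were tested, with a summed log2 level of 4.51 to 4.92 in NcstnΔKC and 4.49 to 4.78 in normal skin. That sum is carried by the bright miR-205-5p (mean 4.00 in NcstnΔKC and 3.53 in normal skin) and miR-203-3p (2.21 and 2.89), which moved in opposite directions. Singly, 4 of the 7 passed as lower in NcstnΔKC (miR-203-3p, miR-200a-3p, miR-200b-3p and miR-429-3p) and 0 as higher, with a median log2 difference of -0.58, against -0.23 over all tested miRNAs. The neuron-defining miR-9-5p and miR-124-3p were detected on 0 arrays. Of the other markers, the summed log2 level of 5 white blood cell miRNAs was 1.47 to 3.08 in NcstnΔKC and 1.02 to 1.47 in normal skin, and that of 4 striated muscle miRNAs 2.68 to 5.26 and 4.13 to 6.39.

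miR-31-5p was low on 7 of the 8 arrays and high on 1, normal replicate 2. The processed intensity is the brightness of a spot after the scanner software subtracted its background, in arbitrary units, and each probe has 15 spots. Probe A_54_P1322 read 34.4, 51.8, 54.9 and 62.7 on NcstnΔKC 1 to 4, against 5.15, 368, 9.20 and 39.7 on normal 1 to 4 (means over spots, outlier spots left out). The spread over its spots was 5.41 to 16.5 (SD) on the NcstnΔKC arrays and 5.05 to 18.8 on the normal arrays. Normal 2 thus stood far outside spot-to-spot error from every other array, the 4 NcstnΔKC arrays and normal 4 lay together in the middle, and normal 1 and 3 lay near 0.

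The shorter probe, A_54_P1323, gave the same picture at lower brightness. It read 13.7, 28.7, 25.6 and 33.6 on NcstnΔKC 1 to 4, against 2.30, 207, -2.70 and 16.6 on normal 1 to 4. In both probes NcstnΔKC 1 was the lowest of its group and NcstnΔKC 4 the highest, and normal 4 lay just above NcstnΔKC 1 and below the other NcstnΔKC arrays.

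**Figure D1:**
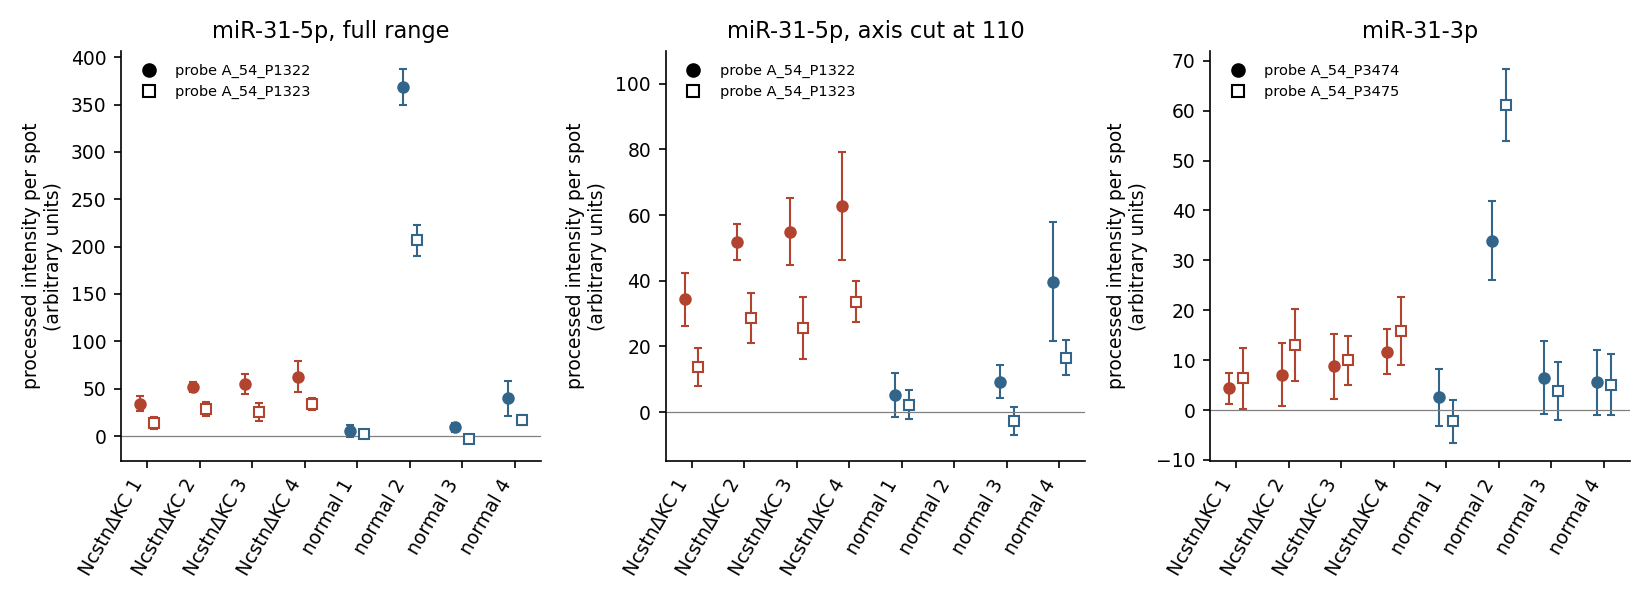
Processed intensity per spot (arbitrary units) of the 4 miR-31 probes on each array, NcstnΔKC in red and normal in blue; points are means over spots, bars are the SD over spots, and filled circles and open squares are the 2 probes of a strand. The middle panel repeats miR-31-5p with the axis cut at 110, where normal 2 (368 and 207) lies off the scale and the 4 NcstnΔKC arrays lie between 13.7 and 62.7.

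Few of these readings were clear of the background. A spot counts as well above background by the scanner software's flag, and a miRNA was called detected on an array where at least 50% of the kept spots of 1 of its probes were. For A_54_P1322, 1, 12, 10 and 12 kept spots passed on NcstnΔKC 1 to 4, against 0, 15, 0 and 3 on normal 1 to 4. The shorter probe passed in all 15 spots on normal 2 and in 0 on each of the other 7 arrays. miR-31-5p was therefore detected on 3 of 4 NcstnΔKC arrays and on 1 of 4 normal arrays. The software's own call, which is more lenient, detected it on 4 of 4 NcstnΔKC arrays and 2 of 4 normal arrays (replicates 2 and 4).

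miR-31-3p, the less abundant strand of the hairpin in most tissues, was detected on normal 2 alone, 1 of 8 arrays. Its longer probe A_54_P3475 read 6.37, 13, 9.95 and 15.8 on NcstnΔKC 1 to 4, against -2.29, 61.1, 3.83 and 5.10 on normal 1 to 4, and 13 of 15 spots passed on normal 2 and 0 on every other array. The shorter A_54_P3474 read 4.35, 7.09, 8.73 and 11.7, against 2.56, 33.9, 6.50 and 5.55, with 0 passing spots on every array. Both strands of the hairpin thus had their highest reading on the same array, and the 3p readings on the other 7 arrays have no order, being at background.

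Summed over its probes, miR-31-5p read 48.1, 80.5, 80.5 and 96.3 on NcstnΔKC 1 to 4, against 7.45, 575, 6.50 and 56.3 on normal 1 to 4. Normal 2 was 5.97 times the next highest array, NcstnΔKC 4, and the other 3 normal arrays did not detect the strand. From high to low the order was normal 2, NcstnΔKC 4, NcstnΔKC 2, NcstnΔKC 3, normal 4, NcstnΔKC 1, normal 1 and normal 3. On A_54_P1322 NcstnΔKC 2, 3 and 4 differed from one another by less than the largest SD over their spots, as did normal 4 from NcstnΔKC 1 and normal 1 from normal 3. The same sum for miR-31-3p was 10.7, 20.1, 18.7 and 27.5 in NcstnΔKC, against 0.273, 95.0, 10.3 and 10.6 in normal skin, and all but normal 2 were not above background.

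To compare arrays, each sum was put on the scale of its array by the 75th percentile of the 301 probes that every array detected, a floor of 0.0318 replaced lower values, and levels are given as log2. The scaled log2 level of miR-31-5p was -4.59, -3.52, -3.72 and -3.47 in NcstnΔKC 1 to 4, against -4.97, -1.08, -4.97 and -4.55 in normal 1 to 4, where -4.97 is the floor. The groups overlapped, and the normal group held both the highest and the lowest values. miR-31-3p lay at the floor on all 4 NcstnΔKC arrays and on normal 1, 3 and 4, with normal 2 at -3.68.

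**Figure D2:**
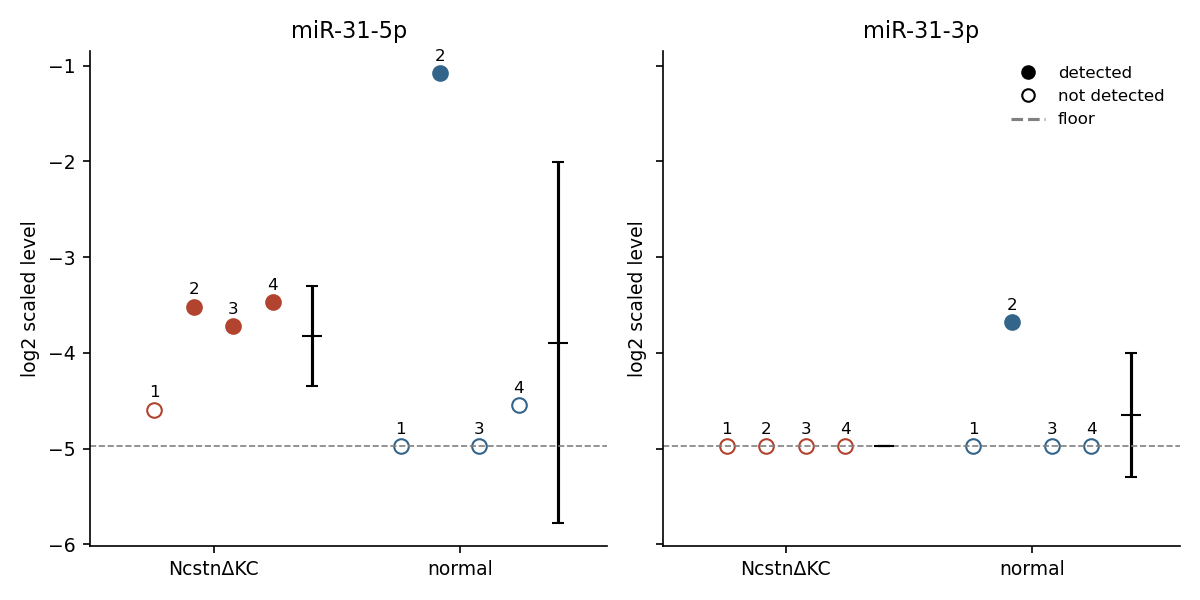
Scaled log2 level of miR-31-5p and miR-31-3p in NcstnΔKC and normal skin; numbers are replicates, filled points are arrays that detected the strand, the dashed line is the floor of -4.97, and bars give the mean ± SD (n = 4 each). Normal 2 is the highest point in both panels, at -1.08 and -3.68, and the SD of miR-31-5p is 0.52 in NcstnΔKC and 1.89 in normal skin.

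Setting NcstnΔKC beside normal skin asks whether miR-31 differs in abundance where basal keratinocytes have lost nicastrin. Over all 8 arrays no difference in miR-31-5p was detectable: it averaged -3.83 ± 0.52 in NcstnΔKC and -3.89 ± 1.89 in normal skin (scaled log2 level, SD, n = 4 each). The log2 difference was 0.07 ± 0.89 (SE; limma over 409 miRNAs, Benjamini-Hochberg adjusted p = 0.965), with an error many times the difference. An exact two-sided permutation test over the arrays gave p = 1 (n = 4 each). Neither strand reached the main filter, detection on all 4 arrays of a group, so both were tested in the fit with no filter on dim miRNAs, which left out only miRNAs with the same value on all arrays. In that fit 98 of 409 miRNAs (24%) passed an adjusted p of 0.05, 34 of them (8.31%) as higher in NcstnΔKC, and 0 of the 2 miR-31 strands did. With the 242 miRNAs detected on at least 4 of 8 arrays, where 37.2% passed, miR-31-5p had an adjusted p of 0.950.

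miR-31-3p had a log2 difference of -0.32 ± 0.30 (SE, limma adjusted p = 0.505), which comes wholly from normal 2, as the other 7 arrays sat at the floor. No fold is given for it, and without normal 2 it had no spread to test. The difference between the strands was not computed, since neither was detected on all arrays of a group.

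The miR-31-5p comparison changed most with normal 2, which was singled out by its high miR-31-5p level. Leaving out the highest normal value can only raise the difference, so no p-value without normal 2 is a valid test. Without normal 2, miR-31-5p was higher in NcstnΔKC by 1.0 ± 0.30 on the log2 scale (limma over 389 miRNAs, adjusted p = 0.0555), which did not pass the threshold. Over the 242 miRNAs detected on at least 4 of 8 arrays, an alternative chosen after the data were seen, the same difference passed with an adjusted p of 0.0350. miR-31-5p met that filter only by its detection on normal 2, the array left out of this fit, so the pass adds no support. An exact two-sided permutation test of the 4 NcstnΔKC against the 3 remaining normal arrays gave p = 0.0857 (0.0286 is the smallest these 7 arrays can give), and normal 4 lay just above NcstnΔKC 1. Leaving out each of the other 7 arrays in turn gave log2 differences from -0.29 to 0.32. With normal 1 and 3 at the floor, the level without normal 2 is partly a bound, so the fitted size depends on where the floor is set.

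**Figure D3:**
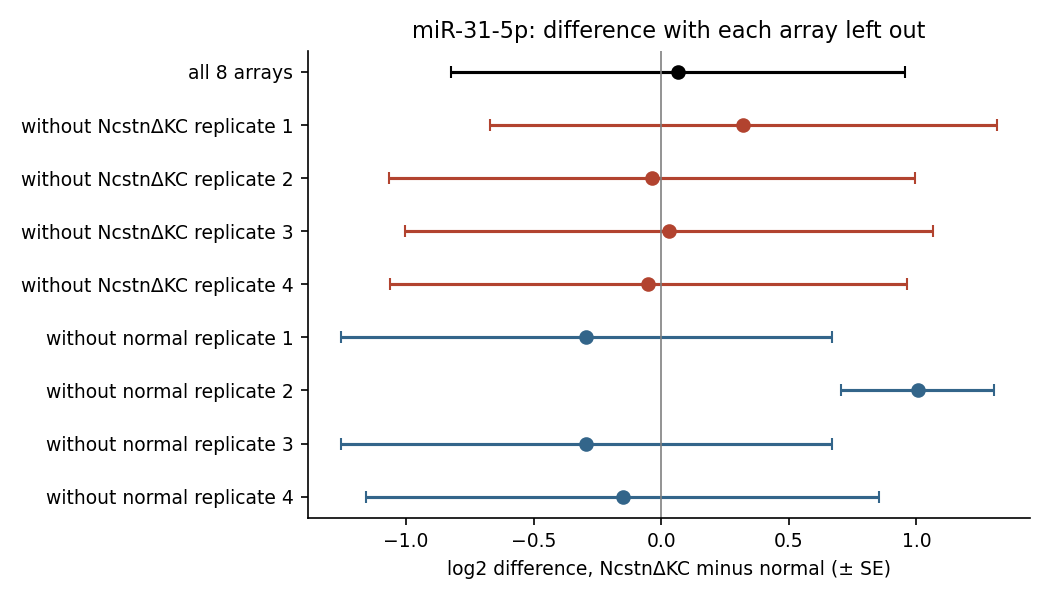
Log2 difference of miR-31-5p, NcstnΔKC minus normal (points, with SE bars), with all 8 arrays (black) and with each array left out in turn (red for NcstnΔKC, blue for normal). The value is 0.07 with all arrays and 1.0 without normal 2, and lies between -0.29 and 0.32 without any other array.

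The direction without normal 2 was the same under all 13 settings of scaling, background, probe summary and floor that were run this way, also chosen after the data were seen. The log2 difference ran from 0.16 to 1.69, it passed in 4 of the 13 (adjusted p from 0.0379 to 0.662), and the groups did not overlap in 6. Among these, quantile normalization gave 1.35 ± 0.35 (adjusted p = 0.0379) and cyclic loess 1.15 ± 0.30 (0.0392). The spike-in scaling gave 0.75 ± 0.31 (0.131). All 13 reprocess the same arrays without the highest normal value, so their common direction and passes are no separate support.

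The authors' normalized values show the same spread. In the deposited series matrix, on a log2 scale of unstated normalization, miR-31-5p stood at 4.03, 4.99, 4.73 and 4.78 in NcstnΔKC, against 3.46, 7.62, 3.43 and 3.90 in normal skin. There all 4 NcstnΔKC values lay above normal 1, 3 and 4 and below normal 2. miR-31-3p stood at 3.49, 3.58, 3.62 and 3.54 in NcstnΔKC, against 3.38, 4.17, 3.44 and 3.44. Array medians in that matrix were 3.24 or 3.25.

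miR-31-5p was also set against the epithelial miRNAs of the same array, a contrast in which normal 1 and 3 still rest on the floor and so on the scaling. The log2 level of miR-31-5p minus the mean of the 7 epithelial markers was -5.22, -4.52, -4.52 and -4.15 in NcstnΔKC 1 to 4, against -6.05, -1.95, -6.07 and -5.72 in normal 1 to 4. All 4 NcstnΔKC values lay above 3 of the normal values and below normal 2. The difference of 0.34 over all arrays had an exact two-sided permutation p of 0.857, and without normal 2 it was 1.34 with p = 0.0571 (35 labelings, smallest possible 0.0286). The latter p is no valid test, since normal 2 was left out for its high miR-31-5p level. The epithelial mean itself was 0.63, 1.0, 0.80 and 0.68 in NcstnΔKC 1 to 4, against 1.07, 0.87, 1.09 and 1.17 in normal 1 to 4. The contrast is therefore larger than the difference of miR-31-5p alone by the lower epithelial level in NcstnΔKC, without which NcstnΔKC 1 and normal 4 overlap.

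Several other miRNAs had their highest normal level on normal 2 by a wide step. Among the 273 miRNAs detected on normal 2, the gap to the next highest normal array was 3.47 on the log2 scale for miR-31-5p, rank 1, and 1.30 for miR-31-3p, rank 20. For both strands the next normal array was not above background, as was so for miRNAs that normal 2 alone detected, so these gaps are limited by the background and the floor and their ranks are a description only. Ranks 2 to 5 were miR-379-5p (2.45), miR-127-3p (2.31), miR-154-5p (2.25) and miR-300-3p (2.17). These 4 belong to the imprinted interval between Dlk1 and Dio3, which carries a large cluster of miRNAs known to be abundant in embryonic tissue. They and the interval were described after their values were seen.

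By RefSeq position (GRCm38.p6, chromosome 12, 109452485 to 110281097), 112 miRNAs of the array lie in that interval. NcstnΔKC 1 to 4 detected 5, 2, 3 and 5 of them, against 7, 16, 4 and 5 on normal 1 to 4. On normal 2 this was 14.3% of the interval, close to the 14.5% of the 1769 other miRNAs detected there, while on the other arrays the interval's share was 1.79% to 6.25% and that of other miRNAs 11.1% to 14.2%. Of the 18 detected on any array, 10 were detected on normal 2 alone. Over the whole array, 16 miRNAs were detected on normal 2 alone, miR-31-3p and those 10 among them, while each other array had 0 to 6 such miRNAs. Among the 15 largest gaps on normal 2, 7 were placed in the interval by RefSeq position. RefSeq matched 1608 of 1881 array miRNAs by name, and the unmatched count as other, so the interval's counts may be too low. Among the unmatched was miR-376c-3p, detected on normal 2 alone with a gap of 1.79 (rank 9). Not every placed member of the interval was raised on normal 2: 14 of the 18 had their highest level there, while miR-494-3p, miR-134-5p, miR-370-3p and miR-3070-2-3p did not. For miR-494-3p, detected on all 8 arrays, normal 2 was the lowest normal array (2.98, against 3.21, 3.83 and 4.17 on normal 1, 3 and 4).

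**Figure D4:**
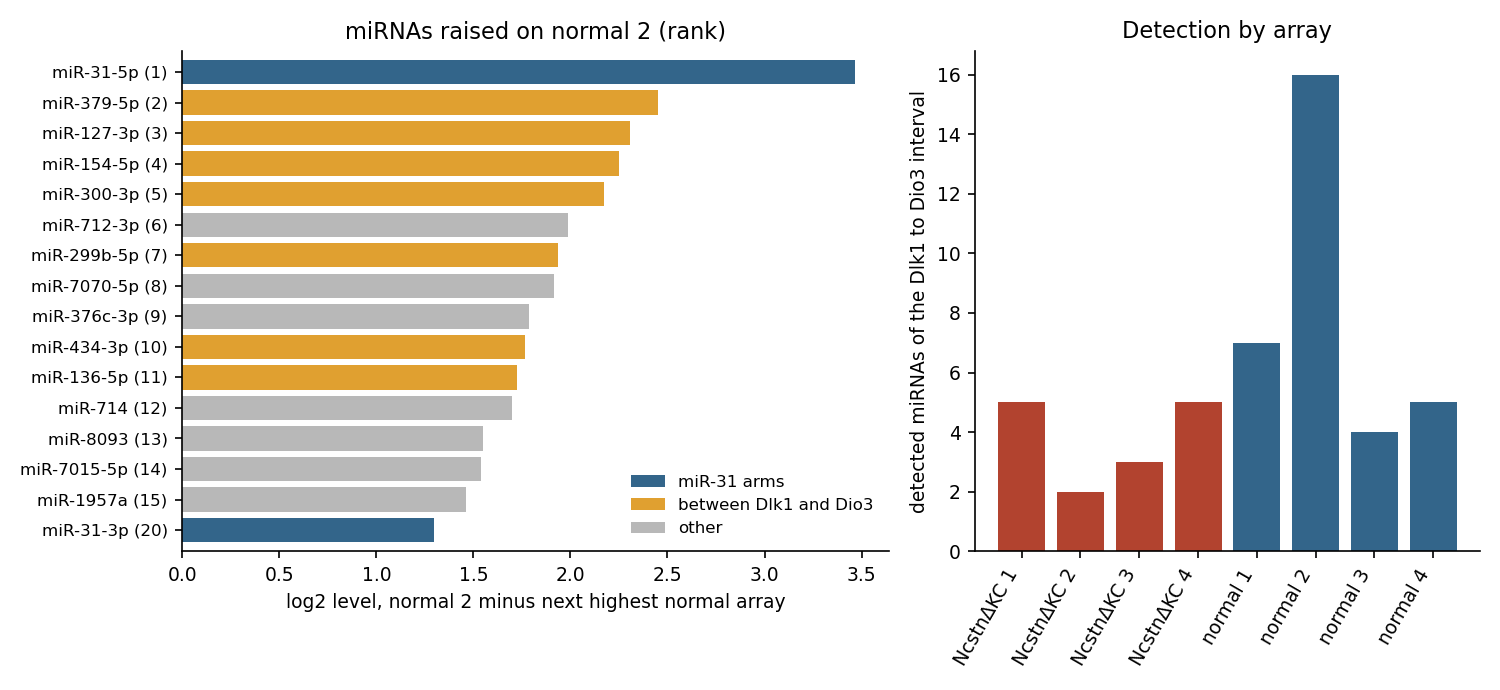
Left, log2 level on normal 2 minus the next highest normal array for the 15 miRNAs with the largest gap and for miR-31-3p (rank 20), with miR-31 in blue, miRNAs placed by RefSeq between Dlk1 and Dio3 in orange, and those outside it or not matched to RefSeq by name (miR-376c-3p) in grey. Right, number of the interval's 112 miRNAs detected on each array, 16 on normal 2 and 2 to 7 on the others.

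Other measures of normal 2 are given beside this as values, and their part in its miR-31 level was not tested. It had the most detected miRNAs, 273 against 198 to 258 on the other arrays, and the most outlier spots, 2940 against 2223 to 2721. Its scaling percentile of 1215 lay above the NcstnΔKC range of 922 to 1160 and below the other normal arrays at 1231 to 1314. Its epithelial sum of 4.49 was the lowest of all arrays, its white blood cell sum was 1.07 and its striated muscle sum 5.66, the last 2 inside the normal range. Of the 222 tested miRNAs, 41 (18.5%) had their highest level on normal 2, and 65 (29.3%) on normal 4.

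Over the 222 tested miRNAs, the 5 profiles most like miR-31-5p were those of miR-709, miR-6984-5p, miR-652-5p, miR-5100 and miR-212-3p. Likeness was the root mean square difference over the 8 arrays between profiles of log2 levels, each centred on its own mean, and it was 0.87, 0.91, 0.91, 0.91 and 0.92. The median tested miRNA lay at 1.27 and a flat profile at 1.20, so even the nearest followed miR-31-5p loosely. The first 4 were highest on normal 2, and miR-212-3p on NcstnΔKC 4. On normal 2, miR-31-5p stood 2.78 above its own mean, and these 5 stood 0.64 to 1.29 above theirs. On normal 1, miR-31-5p lay at -1.11 from its mean, while miR-709, miR-6984-5p and miR-652-5p lay at 0.58, 0.59 and 0.41 from theirs. There miR-5100 and miR-212-3p lay at -0.33 and -0.23. None of the 5 passed in the group comparison (0 of 5, limma adjusted p from 0.157 to 0.551).

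No near neighbour on the chromosome was measured well enough to set beside miR-31. Of the 29 array miRNAs with a position on chromosome 4 in the files (mm9), the nearest on each side were miR-491-3p at 788 kb and miR-872-5p at 5775 kb, each detected on 0 arrays. The nearest tested was miR-101a-3p, at 101019601 to 101019620 and 12463 kb away, with a log2 difference of -0.32 ± 0.16 (SE, adjusted p = 0.138). On the side of miR-491-3p 0 were tested.

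Of the miRNAs known for the same settings as miR-31, some passed and some did not. In the main fit 95 of 222 tested miRNAs (42.8%) passed an adjusted p of 0.05 (limma), 33 higher (14.9%) and 62 lower (27.9%) in NcstnΔKC, with a median log2 difference of -0.23. Of 15 miRNAs known from wound repair and keratinocyte growth, 12 were tested, 5 rose, 3 fell and 4 did not pass, with a median of 0.11. Those with the smallest p were miR-21a-5p, induced in inflamed and proliferating epidermis (2.51 ± 0.23, adjusted p = 0.000477), miR-20a-5p (1.13 ± 0.19, 0.00300) and miR-19b-3p (1.03 ± 0.17, 0.00307), both of the proliferation-linked miR-17 to miR-92 cluster and neither past the threshold when arrays were scaled on all probes (0.0547 and 0.0727). miR-155-5p, induced in activated immune cells, was next (1.26 ± 0.22, 0.00402), though the software's own totals turned it to -1.14. NcstnΔKC and normal values were fully separate for each of these 4, which held for 36.9% of tested miRNAs, while those of miR-31-5p overlapped.

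Of 21 miRNAs known from psoriasis, 13 were tested, 4 rose, 3 fell and 6 did not pass, with a median of -0.14. Beside miR-21a-5p and miR-155-5p the rises were miR-146b-5p, a repressor of Toll-like receptor signalling (1.64 ± 0.29, adjusted p = 0.00402), and miR-142a-3p of blood cells (1.52 ± 0.33, 0.00792). Of the 5 white blood cell markers, miR-142a-3p itself was the 1 that passed, and 4 did not. miR-223-3p and miR-150-5p differed by 1.15 and 0.89 (limma adjusted p = 0.0644 and 0.0653), miR-342-3p by -0.00016 and miR-181a-5p by -0.30. The part of these markers in the rises was not tested. Both miR-31 strands are on this list and neither was among its 13 tested.

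Of 12 hair cycle regulators, 10 were tested, 1 rose, 5 fell and 4 did not pass, with a median of -0.36. Nothing particular to these lists is read from their counts. The rise was miR-214-3p, which represses β-catenin in skin (1.21 ± 0.22, adjusted p = 0.00404). It is also 1 of 4 markers of fibroblasts and smooth muscle. These summed to 2.90 to 3.50 in NcstnΔKC and 2.25 to 2.68 in normal skin (log2), a sum carried by the bright miR-199a-3p. Singly, 2 of the 4 passed as higher (miR-199a-3p and miR-214-3p itself) and 1 as lower (miR-145a-5p, -1.14, limma adjusted p = 0.0450). miR-143-3p did not pass (-0.52), and the part of these markers was not tested. The largest falls on the hair cycle list were miR-195a-5p of the cell-cycle-braking miR-15 family (-1.21 ± 0.19, 0.00238), let-7b-5p of the differentiation-linked let-7 family (-0.76 ± 0.14, 0.00456) and miR-203-3p, which promotes epidermal differentiation (-0.68 ± 0.17, 0.0139). The differences of let-7b-5p and miR-203-3p turned to 0.11 and 0.19 with the percentile over all probes, a scaling under which 0 of 222 miRNAs passed as lower and miR-195a-5p had -0.34 (adjusted p = 0.814). That scaling moved the median of all tested miRNAs by 0.87 and gave each of these 3 an SE of 0.69. Quantile normalization also ended the calls of let-7b-5p (-0.44, 0.0673) and miR-203-3p (-0.54, 0.0696). miR-205-5p of basal keratinocytes differed by 0.47 ± 0.17 (0.0518), and passed under several settings, among them quantile normalization (0.70, 0.0200), cyclic loess (0.59, 0.0390), normexp (0.44, 0.0443) and array weights (0.51, 0.00450), whose estimation stopped before its tolerance. It did not pass with no scaling (0.20, 0.299) or with scaling on all probes (1.33 ± 0.69, 0.248). The counts in all 3 lists were the same without normal 2 (5 and 3, 4 and 3, and 1 and 5 higher and lower), where 38.4% of 224 miRNAs passed, so the array that moved miR-31-5p most changed none of these numbers of calls.

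**Figure D5:**
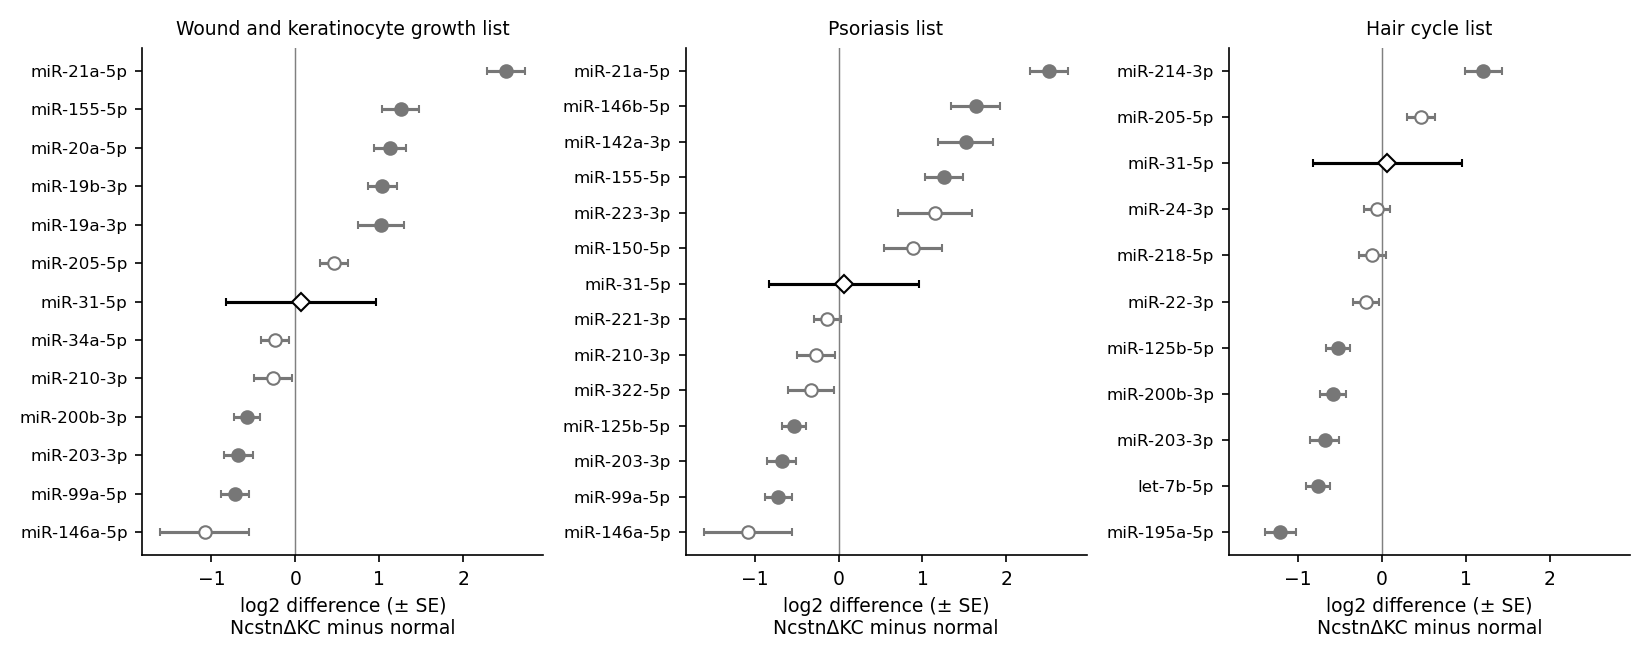
Log2 difference, NcstnΔKC minus normal (± SE), of the tested members of the 3 lists (circles) and of miR-31-5p (diamond, from the fit with no filter); filled symbols passed an adjusted p of 0.05. The SE of miR-31-5p, 0.89, is wider than that of every other miRNA shown, of which miR-146a-5p has the next widest at 0.52.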

How the data were processed

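Per the labels' protocols, total RNA (mirVana extraction, integrity read on a Bioanalyzer) was labelled with Cy3, so each array has 1 colour. Per the file headers, Agilent Feature Extraction 10.7.1.1 gave every spot a background-subtracted intensity, which was deposited with its flags. Values in the deposited series matrix are log2, with normalization unstated. Of 58594 spots, 56430 belong to 4415 probes for 1881 miRNAs; controls and outlier spots (2223 to 2940 per array) were left out. Scaled probe means were summed per miRNA. The floor is the lowest scaled signal among miRNAs detected on an array, as a median of the 8 arrays. Testing used limma 3.58.1 (R 4.3.3) on the 222 miRNAs that all 4 arrays of at least 1 group detected, with Benjamini-Hochberg adjustment over all of them. Single values were compared by exact two-sided permutation of the absolute difference of means over 70 labelings (35 without 1 array). The fit was tested on simulated data. The number of arrays limits the precision. Sequences came from RefSeq (GRCm38.p6), which matched 1608 of 1881 array miRNAs by name. The members, lists and markers were chosen with earlier results of these data known. Named were both miR-31 strands, the 4 list members of smallest p per list, the 5 most alike profiles and the nearest neighbours on the chromosome; miR-205-5p was named for its role. Alternatives covered scaling, background, probe summary, floor, filter, replicate block, array weights and leaving out each array.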

Additional observations from a re-analysis of the deposited data

Results flagged for a closer look

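Normal 2 was far from the other 3 normal arrays in all 3 values that rest on miR-31. The gap to the nearest normal array was a share of 0.89 of the group's whole range for the miR-31-5p level, 1 for the miR-31-3p level and 0.915 for miR-31-5p minus the epithelial markers, above the critical value of Dixon's test for 4 samples. Chance alone passes this limit in about 1 in 20 groups, and the 3 values share the same array and are not independent. For miR-31-3p the other 3 normal arrays were set to the floor, so its share of 1 follows from the floor and is no test, and for miR-31-5p 2 of the other 3 were at the floor. No NcstnΔKC array passed it in either miR-31-5p value, and all 4 had the same floored miR-31-3p level.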

How the results depend on the processing

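miR-31-5p did not pass in any setting with all 8 arrays, and its log2 difference, 0.07 as reported, lay on either side of 0; the cause was not tested. It was -0.11 with no scaling, -0.18 with spike-in scaling, -0.075 with normexp, -0.40 with the brightest probe, -0.45 with the mean of log2 over probes and -0.42 with a floor 2 times as high, and 0.83 with array weights (adjusted p = 0.223; their estimation stopped before its tolerance). Without single arrays it ran from -0.29 to 1.0, falling below 0 without NcstnΔKC 2 (-0.04) or 4 (-0.05) and without normal 1 (-0.29), 3 (-0.29) or 4 (-0.15). Without normal 2 it passed as 1.0 (adjusted p = 0.0350) over miRNAs detected on at least 4 of 8 arrays. That filter it met only by its detection on normal 2 itself. Scaling on all probes turned miR-31-3p to 0.18, and it ran from -0.43 to -0.32 without single arrays. miR-31-5p minus epithelial miRNAs, 0.34 as reported, turned to -0.11 with the brightest probe, -0.19 with the mean of log2 and -0.15 with the higher floor, and ran from -0.031 (without normal 3) to 1.34 without single arrays, with -0.025 without normal 1. Calls higher, 33 as reported, were 12 with scaling on all probes, 18 with spike-ins, 21 with the software's totals and 52 with array weights, and 23 to 33 without single arrays. Calls lower, 62 as reported, were 0 with scaling on all probes, 30 with quantile normalization, 38 with cyclic loess, 101 with no scaling, 28 with normexp, 36 with the series matrix, 34 among miRNAs detected on all 8 arrays and 97 with array weights. Without single arrays they were 35 (without NcstnΔKC 3) to 65. The higher calls were 34, 39, 24, 36 and 36 with quantile normalization, cyclic loess, no scaling, normexp and the series matrix, and the lower calls 91 with spike-ins. Relative to the main median, these scalings moved the median of tested miRNAs by 0.87 (all probes), 0.16 (quantile), 0.13 (cyclic loess), 0.17 (normexp), -0.26 (no scaling) and -0.31 (spike-ins). miR-709, miR-6984-5p and miR-101a-3p turned to 0.41, 0.43 and 0.55 with scaling on all probes, let-7b-5p to 0.11 and miR-203-3p to 0.19, each with an SE of 0.69. With array weights miR-709 and miR-6984-5p turned to 0.24 and 0.10. With the software's totals miR-652-5p turned to -0.62 and miR-155-5p to -1.14, and without normal 4 miR-652-5p turned to -0.011; its values without single arrays reached 0.73. Same-numbered arrays, which share a slide column, did not deviate together (correlations of -0.44, 0.20, -0.26 and -0.23). With the replicate number as a block miR-31-5p stayed at 0.07 (adjusted p = 0.959), miR-31-3p at -0.32 (0.512), and 28 miRNAs were called higher and 43 lower. Signals near background limit both strands: 7 of 8 arrays give miR-31-3p only a bound.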
